A study of Mus musculus with 12 samples.

Results

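The subject is 7 protein-coding genes of the mouse that carried more 5-methylcytosine (m5C) peaks in the young than in the aged hippocampus: the zinc finger genes Zfp978, Zfp991 and Zfp993, the PRAME-like genes Pramel44 and Pramel45, Tcp10c and Sp140. They were chosen on that very difference, so their counts of peaks at the 2 ages are a description, carry no test and support nothing. They are 7 of the 9528 protein-coding genes with a peak on their own strand in at least 1 list, out of 21900 gene spans.

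m5C is a methylated form of cytosine found in RNA as well as in DNA. It was mapped in hippocampus of female wild-type (WT) C57BL/6 mice aged 3 months, labelled young, or 18 months, labelled natural aging and called aged here. Fragmented RNA was captured with an antibody to m5C, the captured RNA (IP) and uncaptured RNA (input, the control) were sequenced from directional libraries, and each of the 12 libraries belonged to 1 of 6 pairs, 3 per age. Each pair gave 1 deposited list of peaks, intervals where the IP stood above its input. The labels name no genetic change and no agent, and do not say whether the 3 pairs of an age came from separate animals, so the spread between lists may be partly technical. Depth was unknown, since the lists hold no read counts, and more RNA of a gene and more methylation of it cannot be told apart in them; nor can fewer cells of a type and less RNA per cell.

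Many mouse Zfp genes encode KRAB zinc finger proteins, which bind DNA, often in transposable elements, and recruit the corepressor TRIM28 with histone and DNA methylating enzymes. They multiply by local duplication, and chromosome 4 holds a long run of such copies. PRAME-like genes are another family of tandem copies, with leucine-rich repeat products known mainly from germ cells and early embryos. Tcp10c is a gene of the t-complex on chromosome 17, known from testis, and Sp140 encodes a nuclear body protein with a bromodomain, related to SP100 and known mainly from immune cells.

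Because these genes have near copies, a short read can match more than 1 place, and the labels do not tell how the authors placed such reads. The promoter windows below are shown because they let a reader see how alike the copies are. RefSeq windows of build GRCm38.p6 (250 bases before to 50 after a transcript start) were matched by symbol for 4 of the 7 members, Tcp10c, Sp140, Pramel45 and Zfp993, and each was compared with 32851 promoters. Capitals mark bases left unmatched when the window was aligned end to end with its nearest window.

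The first pair is Tcp10c at chr17:13354322-13354621 and its relative Tcp10b at chr17:13060861-13061160, both on the plus strand.
Tcp10c: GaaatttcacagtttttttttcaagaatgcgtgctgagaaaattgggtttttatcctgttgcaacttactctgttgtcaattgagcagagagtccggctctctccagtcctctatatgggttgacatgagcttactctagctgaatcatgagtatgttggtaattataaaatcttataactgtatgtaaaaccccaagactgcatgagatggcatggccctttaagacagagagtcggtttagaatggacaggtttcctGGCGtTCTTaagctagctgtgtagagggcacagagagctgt
Tcp10b: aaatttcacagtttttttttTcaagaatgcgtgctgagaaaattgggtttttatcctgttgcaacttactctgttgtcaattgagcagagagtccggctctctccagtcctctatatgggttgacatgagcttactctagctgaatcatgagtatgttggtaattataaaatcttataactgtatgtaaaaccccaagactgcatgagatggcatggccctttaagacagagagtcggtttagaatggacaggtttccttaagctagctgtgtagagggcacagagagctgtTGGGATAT
They differed by 18 edits (single-base changes, insertions or deletions), and their longest identical run was 247 bases. Tcp10a, the other relative, lay 30 edits away.

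The second pair is Sp140 at chr1:85600453-85600752 on the plus strand and A530032D15Rik at chr1:85109804-85110103 on the minus strand, each read along its own gene.
Sp140: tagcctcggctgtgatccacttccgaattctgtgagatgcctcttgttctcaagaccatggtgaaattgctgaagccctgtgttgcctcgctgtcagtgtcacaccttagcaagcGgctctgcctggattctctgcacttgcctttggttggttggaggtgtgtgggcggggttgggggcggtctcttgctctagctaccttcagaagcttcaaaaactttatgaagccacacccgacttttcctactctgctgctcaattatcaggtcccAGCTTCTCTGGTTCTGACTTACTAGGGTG
A530032D15Rik: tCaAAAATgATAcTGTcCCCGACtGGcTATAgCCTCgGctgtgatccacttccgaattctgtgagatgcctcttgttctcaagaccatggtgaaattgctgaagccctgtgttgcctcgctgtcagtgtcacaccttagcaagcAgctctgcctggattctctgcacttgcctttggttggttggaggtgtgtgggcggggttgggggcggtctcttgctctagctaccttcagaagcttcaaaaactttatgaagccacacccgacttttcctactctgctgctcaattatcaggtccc
The capitals fall mainly at the ends, because the windows are offset copies of 1 stretch. They differed by 59 edits over the whole window and shared an identical run of 155 bases.

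The window of Pramel45 at chr5:95108206-95108505, on the plus strand, is printed once, since that of Gm46934 at chr5:94777966-94778265 was the same in all 300 bases.
Pramel45: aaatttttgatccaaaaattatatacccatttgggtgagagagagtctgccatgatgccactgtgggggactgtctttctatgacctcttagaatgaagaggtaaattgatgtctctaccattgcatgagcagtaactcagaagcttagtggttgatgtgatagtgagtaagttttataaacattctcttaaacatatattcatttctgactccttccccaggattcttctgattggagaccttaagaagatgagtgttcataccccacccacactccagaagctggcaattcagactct
A further window, that of Gm46935, lay 1 edit away. The nearest window to that of Zfp993 was 141 edits away, so no close promoter copy of it was among the windows compared. No peak of any list touched the 4 members' windows. The motif TATAAA, searched on both strands, occurred in the windows of Tcp10c and Pramel45 and in 13.6% of all promoters of this length. The Pramel45 window held 0 CpG pairs, against a median of 7 over all promoters.

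Across the 7 genes together, the young lists held 25, 26 and 18 distinct peaks and the aged lists 15, 9 and 11, each peak counted once where genes overlap. The lowest young list lay above the highest aged list. The means were 23 ± 4.36 (SD, n = 3) and 11.7 ± 3.06 (SD, n = 3), a ratio of 1.97. The whole lists moved the other way, with 9887, 8549 and 10392 peaks at 3 months and 15189, 14008 and 14294 at 18 months. The members' share of all peaks was thus 0.253%, 0.304% and 0.173% in young lists and 0.0988%, 0.0643% and 0.0770% in aged lists. The sequence they covered came to 6903, 7410 and 5936 bases against 3750, 3092 and 2280 bases.

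**Figure D1:**
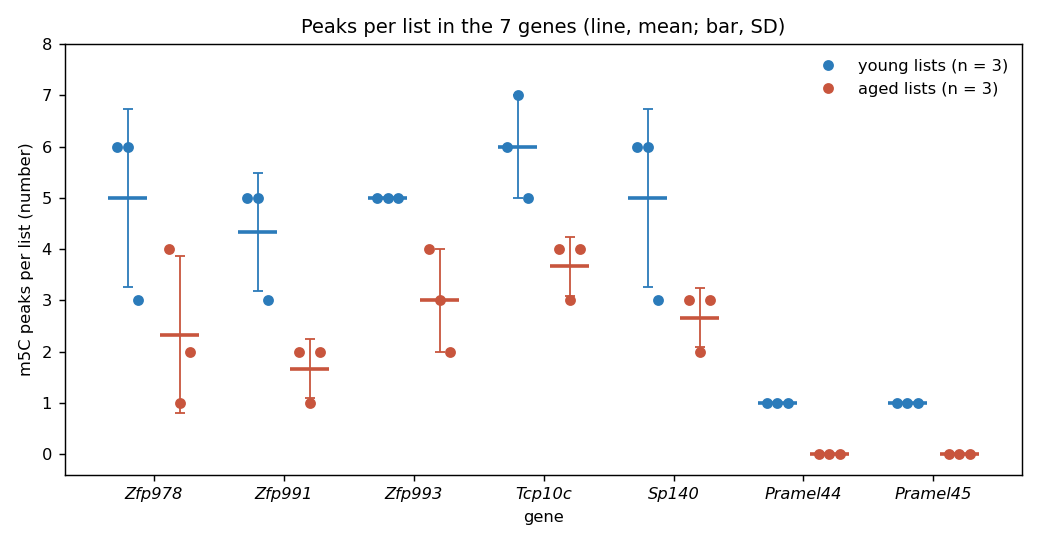
Number of m5C peaks per list (vertical axis) in each of the 7 genes (horizontal axis), with 1 point per list, a line at the mean and a bar for the SD (n = 3 per age). The ages overlap in Zfp978 and touch at 3 peaks in Sp140, and the aged lists are at 0 in both Pramel genes. Peaks in the overlap of Zfp978 and Zfp991 are drawn for both.

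Every young list stood above every aged list in 5 of the 7 genes, namely Zfp991, Zfp993, Tcp10c, Pramel44 and Pramel45, a pattern found in 0.955% of all genes with a peak. The opposite pattern held in 11.8% of genes and in none of the members. Pramel44 and Pramel45 had a peak in 3 of 3 young and 0 of 3 aged lists, as did 0.808% of genes. All 7 had a higher mean at 3 months, against 19.7% of genes. These shares are printed as background only, because the members were picked on this contrast. Ranked by the difference of means among the 9528 genes, Zfp978 and Zfp991 tied for rank 1, Tcp10c and Sp140 tied for rank 3, and Zfp993 stood at rank 6. Genes outside the members shared ranks 3 and 6. In all, 5 genes had a difference at least that of Tcp10c, and 8 at least that of Zfp993. The Pramel genes, with a difference of 1 peak, shared rank 55, and 174 genes had a difference at least that large.

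The peaks fell into 30 regions, a region being a set of touching or overlapping peaks on 1 strand over all lists. Of these, 23 had a peak in more young than aged lists, 4 in equal numbers and 3 in more aged lists. 4 regions appeared in 3 young and 0 aged lists, and 0 regions in the reverse. The members were chosen for more young peaks, so these splits, here and for single genes, are description only. No share over all regions was computed. 3 regions were present in all 6 lists, 2 of them in Zfp993 and 1 in Tcp10c. Over all lists there were 104 distinct peaks, and 19 of them (18.3%) lay in more than 1 protein-coding gene.

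**Figure D2:**
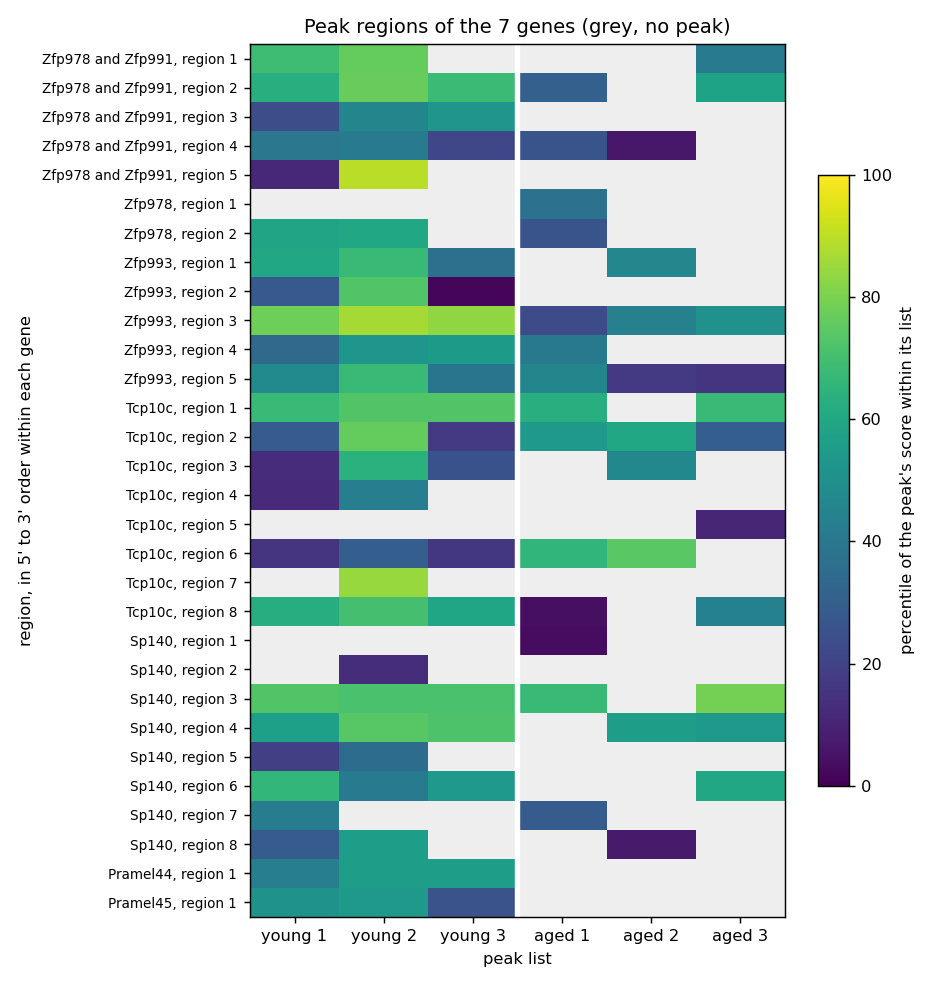
The 30 peak regions (rows, ordered along each gene) in the 6 lists (columns). Colour gives the percentile of the peak's score within its own list and grey means no peak. In 23 of 30 rows more young than aged lists are filled, in genes that were chosen for more young peaks. The aged peaks reach percentile 79.0 of their list and the young ones 89.8.

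The score is the authors' own value per peak and was used only to place a peak within its list. The members' median percentile was 42.6, 65.6 and 53.3 in the young lists and 30.6, 46.2 and 50.8 in the aged lists. They were therefore mid-ranking peaks in both ages, and young list 2 held the highest-placed ones. Peaks at or above their list's median score numbered 11, 19 and 10 in young lists and 4, 3 and 6 in aged lists, so the ages also did not overlap in this upper part.

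Zfp978 and Zfp991 are not separate sources of evidence. Zfp991 spans chr4:147132093-147180579 and lies wholly within Zfp978, at chr4:147124882-147392027, both on the plus strand as read from the peaks. Zfp978 held 6, 6 and 3 peaks in young lists and 4, 1 and 2 in aged lists, which overlap. Zfp991 held 5, 5 and 3 against 2, 1 and 2, which do not. All 5 regions of Zfp991 are also regions of Zfp978. The mean difference was 2.67 peaks for each gene. Once peaks in more than 1 gene were set aside it was 0.333 for Zfp978, and Zfp991 had no peak left.

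The region of this pair found in 3 young and 0 aged lists was chr4:147176747-147176873, with scores of 74.3, 106 and 133 in the young lists. A wide region beside it, chr4:147178325-147180032, was present in all young lists with scores of 103, 96.6 and 68.3 and in aged lists 1 and 2 with 80.3 and 55.3. At the 3′ end of Zfp991, chr4:147180212-147180579 was listed only in young lists 1 and 2, with scores of 59.8 and 879. These lay at percentiles 11.3 and 89.8 of their lists, so the young lists themselves differed widely at this place. Outside Zfp991, Zfp978 had 1 region near its 3′ end, chr4:147390200-147391004, in young lists 1 and 2 and aged list 1. Its other region, chr4:147305674-147305775, was in aged list 1 only and is shared with Zfp988, another zinc finger gene of the cluster.

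Zfp993 spans chr4:146512849-146991471 on the plus strand, which makes it the longest member at 478623 bases, and its span rests on 1 predicted transcript model. It held 5 peaks in each young list and 4, 3 and 2 in aged lists. The same 5 regions were present in every young list. All 5 also lie inside an annotated pseudogene, LOC115486238, at chr4:146610857-146712062, so the peaks cannot be given to the coding gene alone. The region chr4:146613510-146613602 was the one found in 3 young and 0 aged lists, with scores of 79.9, 265 and 51.0. The third of these lay at percentile 1.32, near the bottom of its list.

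The 46-base region chr4:146644459-146644504 of Zfp993 was listed at both ages in every sample. Its scores were 438, 628 and 532 in young lists, at percentiles 77.8, 86.3 and 83.2. In aged lists they were 75.0, 118 and 145, at percentiles 22.8, 43.4 and 50.8. It thus ranked high in every young list and near or below the middle of every aged list. Because the lists differ in length and the depth is unknown, these positions are given side by side and no change is read from them.

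A peak pattern of the zinc finger cluster recurred at separate loci. A narrow peak followed by a wide one whose start lay 1578 bases downstream was found at Zfp993, at Zfp991 and at Znf41-ps, a transcribed pseudogene at chr4:145789515-145831978 that was singled out after its peaks were seen. The narrow peak was 127 bases wide in young lists 1 and 2 and 119 bases wide in young list 3, at all 3 loci. Its scores were 91.1, 126 and 140 at Zfp993, and those of the Zfp991 copy are given above. They were 51.0, 82.0 and 99.4 at Znf41-ps. The order was the same at each locus, with young list 1 lowest and young list 3 highest. Among aged lists, the narrow peak was listed once, at Zfp993 in aged list 1, with a score of 111. In the 3 young lists the loci therefore matched each other, list by list, in the width of this peak and the spacing to the next. In aged list 1 the narrow peak was at Zfp993 alone, but later peaks kept shared offsets from its place. One began 1578 bases on at Zfp993 and Zfp991, and another 1804 bases on at Zfp993 and Znf41-ps. Whether the same reads were counted at more than 1 of these loci was not tested. A search for such recurring pairs up to 30 kb apart found none for Tcp10c or Sp140. It also found none for Pramel44 or Pramel45, but each of these had only 1 region. No pair within either gene was thus possible, and nothing is read from that result.

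**Figure D3:**
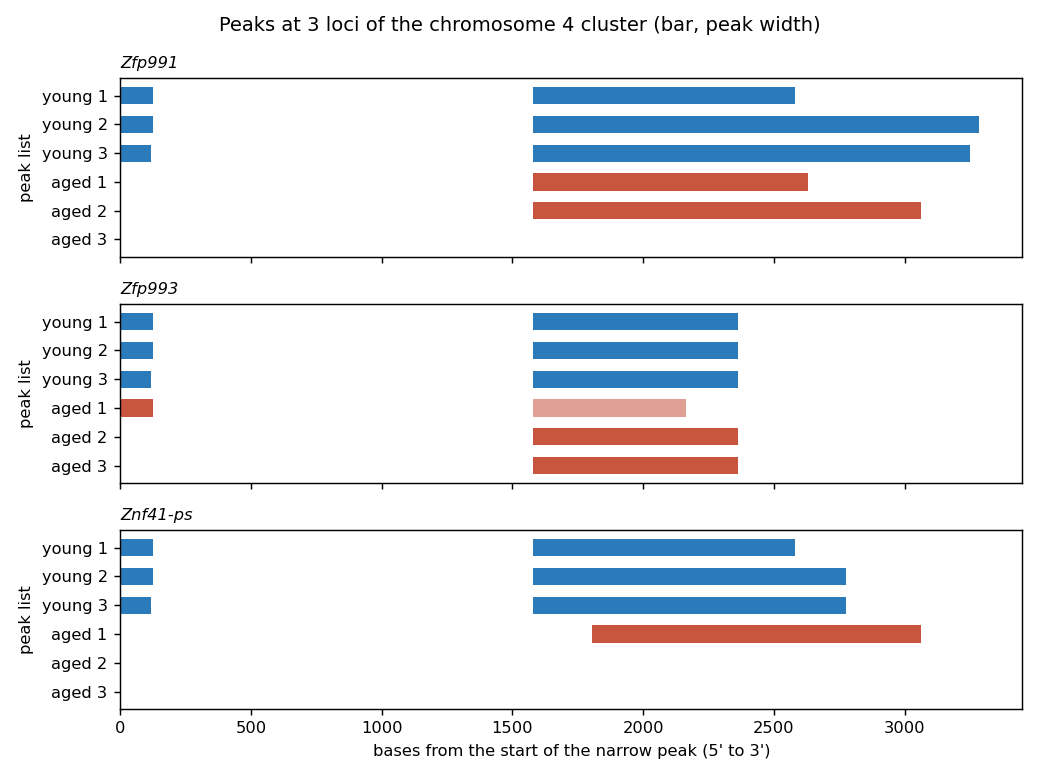
Peaks at Zfp991, Zfp993 and Znf41-ps by list, in bases from the start of the narrow peak. The narrow peak is in 3 of 3 young lists at each locus and in 1 aged list at Zfp993, and the wide peak starts at 1578 bases except in aged list 1 at Znf41-ps, where it starts at 1804. The paler bar in aged list 1 at Zfp993 stands for 2 peaks, which start at 1578 and 1804 bases. It starts at the first of them and is drawn at their summed width of 585 bases, so its end is not that of a peak.

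Neighbouring zinc finger genes on chromosome 4 did not share 1 pattern. Zfp992, the next gene upstream of Zfp993, held 3, 2 and 3 peaks in young lists and 3, 2 and 2 in aged lists. Rex2, whose span overlaps the end of Zfp993, held 1, 3 and 2 against 0, 1 and 1. Zfp982 held 0, 1 and 1 against 1, 0 and 0, Zfp988 had a single peak in aged list 1, and Zfp981 had none. The ages overlapped or touched in each of these genes. The cluster was bounded after the values were seen, at chr4:145510759-147849126. Of its 13 other Zfp-named genes, 7 had a peak, 4 with a higher mean at 3 months and 3 at 18 months. Over all 9528 genes with a peak, 1873 had a higher mean at 3 months and 6162 at 18 months. The number of these other cluster genes with a peak was 3, 5 and 4 against 4, 4 and 4.

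Pramel44 spans chr5:94586408-94626848 on the plus strand as read from its peaks and contains Pramel43 on the opposite strand. On that strand Pramel44 had 1 peak in each young list and none in aged lists, always at chr5:94624767-94625354 and always 588 bases wide. Counted on either strand, its span held 2.67 peaks in young and 1.67 in aged lists on average. The scores of the 588-base peak were 111, 139 and 144, at percentiles 42.6, 56.0 and 55.6. Pramel45 spans chr5:95108456-95111158 on the plus strand and rests on a predicted transcript model. It too had 1 peak per young list and none in aged lists, at chr5:95109207-95109797. The peak was 591 bases wide in young list 1 and 462 in the other young lists, with scores of 142, 131 and 72.8. These were middle or lower peaks of their lists, so each call of 3 against 0 rests on 1 modest peak per list.

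Peaks of the same widths occurred in other PRAME-like copies. A peak of 588 bases was also listed in Pramel40 (young lists 1 and 3) and Pramel41 (young list 3). At this exact width it was in no aged list at any of the 3 places. For either width only exact matches were counted, so peaks of other widths at the same places were left out. Over the whole gene, Pramel40 held 1, 2 and 1 peaks in young and 1, 0 and 1 in aged lists. Pramel41 held 1, 1 and 1 against 0, 1 and 1. A peak of 591 bases was listed in 7 genes of the family, Pramel45 among them. Unlike the first, it was in at least 1 aged list at 5 of those places. In Pramel36 it was in all 6 lists, with scores of 382, 573 and 264 in young and 73.1, 63.5 and 81.8 in aged lists. In Pramel42 it was in aged list 1 only, and in Pramel46 in aged lists 2 and 3 only. Pramel43, inside Pramel44 on the other strand, held 2, 2 and 1 peaks in young lists and 2, 1 and 2 in aged lists. Gm46934 and Gm46935, whose promoter windows lay 0 and 1 edits from that of Pramel45, had no peak in any list.

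The PRAME-like family apart from both members had 46 genes, 14 of them with a peak. The number with a peak per list was 10, 12 and 10 at 3 months and 7, 8 and 11 at 18 months, which overlap. By means, 8 genes had more peaks at 3 months, 3 at 18 months and 3 were equal. Over all 9528 genes with a peak, 1873 had more at 3 months and 6162 at 18 months. The family counts leave out both members, which were chosen for their young peaks, so the overlap holds for the other genes only. On either side of the members, Pramel42 held 3, 2 and 3 against 3, 3 and 3, and Gm3183 held 2, 1 and 2 against 1, 2 and 2. Gm16513, downstream of Pramel45, held 3, 3 and 4 against 1, 1 and 2, with no overlap between the ages. Every young list stood above every aged list in 0.955% of all genes with a peak.

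Tcp10c spans chr17:13354572-13377223 on the plus strand. It held 6, 7 and 5 peaks in young lists and 4, 3 and 4 in aged lists, without overlap. Its region chr17:13356341-13356556 was present in all 6 lists and was 216 bases wide in each. The scores there were 81.6, 315 and 63.8 in young lists and 163, 195 and 85.1 in aged lists, so this region did not order the ages. The region chr17:13368079-13368216 had low scores in young lists, 64.1, 76.0 and 63.1, and higher places in aged lists 1 and 2, at 251 and 378. Of its 8 regions, 6 were in more young than aged lists. The region chr17:13359746-13359904 was in 3 young lists and in aged list 2, chr17:13360865-13361023 in young lists 1 and 2, and chr17:13376187-13377014, at the 3′ end, in 3 young lists and in aged lists 1 and 3.

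Tcp10a and Tcp10b carried fewer peaks. Tcp10a held 1, 1 and 1 peaks in young lists and 1, 0 and 0 in aged lists, and Tcp10b held 1, 2 and 2 against 2, 1 and 2. Both had a 216-base peak close to the gene start, like that of Tcp10c, and in young list 3 these peaks of Tcp10a and Tcp10b had the same score of 51.4. The 3′ peak also recurred, 20282 bases from the start of the Tcp10a span, 20459 from that of Tcp10b and 21615 from that of Tcp10c. Peaks between these ends were listed in Tcp10c alone of these 3 genes. On either side of Tcp10c, Smok2b held 1 peak in each young and 2 in each aged list, and Tcte2 had 1 peak, in aged list 1. Every aged list stood above every young list, as in Smok2b, in 11.8% of all genes with a peak.

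Sp140 spans chr1:85587491-85645040 on the plus strand. It held 6, 6 and 3 peaks in young lists and 3, 2 and 3 in aged lists, so young list 3 lay level with the aged lists. The region chr1:85620056-85620157 was in 3 young lists, with scores of 324, 250 and 260, and in aged lists 1 and 3, with 272 and 489. It was the highest-placed peak of the gene in aged list 3, at percentile 79.0. The region chr1:85621654-85621707 was in 3 young lists and aged lists 2 and 3, and chr1:85630460-85630564 in 3 young lists and aged list 3. Of its 8 regions, 6 were in more young than aged lists, and chr1:85626100-85626165 was in young lists 1 and 2 only. Another region, chr1:85609694-85609856 in aged list 1, lies where the span of Sp110 overlaps on the other strand.

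Relatives of Sp140 held differing counts. Sp110 held 2, 1 and 1 peaks in young lists and 3, 3 and 4 in aged lists, without overlap, and Sp100 had 1 peak, in aged list 2. The pattern of Sp110, every aged list above every young list, held in 11.8% of all genes with a peak. A530032D15Rik, whose promoter shares the 155-base run with that of Sp140, held 6, 7 and 6 peaks against 6, 7 and 4, with overlap. Upstream, Gm7592 held 3, 3 and 4 against 3, 3 and 3.

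The other zinc finger genes, defined by name alone, give the comparison that the choice of members did not fix. Of 394 such genes, 187 had a peak, and 99, 94 and 102 had one in the young lists against 131, 114 and 132 in the aged lists. The means were 98.3 ± 4.04 and 126 ± 10.1 (SD, n = 3 each), a difference of 27.3 genes (two-sided exact permutation p = 0.1, and 0.3 after Benjamini-Hochberg adjustment over 3 comparisons; no lower raw p than 0.1 can come from 3 lists against 3). By means, 117 genes had more peaks at 18 months, 37 at 3 months and 33 were equal. The median difference over those with a peak, young minus aged mean, was -0.333 peaks, the same as over all 9528 genes. Every aged list stood above every young list in 21 of the 187 (11.2%, against 11.8% of all genes with a peak) and the opposite held in 3 (1.60%, against 0.955%), so these shares lay near the background. The direction depended on list length: with each list held to its 8549 highest-scoring peaks, 86.3 genes had a peak in young and 73 in aged lists on average (exact permutation p = 0.1).

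Among these zinc finger genes, 3 (1.60%, against 0.808% of all genes with a peak) had a peak in 3 young and 0 aged lists, as the Pramel members did: Zfp763, Zfp936 and Zfp94, each with 1 peak per young list. In the opposite class were 10 genes (5.35%, against 4.24% of all), namely Zfp251, Zfp3, Zfp329, Zfp397, Zfp668, Zfp740, Zfp81, Zfp865, Zfp949 and Zfp955a, with 1 or 2 peaks in each aged list. None of the 13 lies in the chromosome 4 cluster.

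The other copies of the multicopy families, 50 PRAME-like, Tcp10 and SP100 family genes, included 18 with a peak. In young lists 13, 15 and 13 genes had a peak and in aged lists 10, 11 and 13. The aged mean was lower by 2.33 genes, with overlap at 13 (exact permutation p = 0.3, adjusted 0.3). The means were further apart with lists of equal length, at 13 and 6.33 genes (exact permutation p = 0.1), and with peaks from the list median up, at 10.3 and 5.67 (exact permutation p = 0.1). By means, 9 genes had more peaks at 3 months, 5 at 18 months and 4 were equal, with a median difference, young minus aged mean, of 0.167 peaks. Over all 9528 genes, 1873 had more at 3 months and 6162 at 18 months.

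The silencing machinery that KRAB zinc finger proteins recruit was read from a list of partner genes. Of 14 such genes, 11 had a peak, in numbers of 10, 7 and 9 in young and 11, 10 and 11 in aged lists (exact permutation p = 0.2, adjusted 0.3). The difference of 2 genes was 0.333 with lists of equal length, at 8.33 and 8.67 genes (exact permutation p = 1), and 1.17 without young list 2. All 11 had a higher mean number of peaks at 18 months, with a median difference, young minus aged mean, of -1. Together they held 28.3 ± 2.89 peaks at 3 months and 44 ± 1 at 18 months (SD, n = 3 each). Over all 9528 genes with a peak, 6162 had a higher mean at 18 months, with a median difference of -0.333. The whole lists were 1.51 times as long at 18 months, by their means, so a rise was not confined to the partner genes. Every aged list stood above every young list in 5 of the 11, against 11.8% of all genes with a peak. What lies behind that share was not tested. The 5 were Cbx1, Atrx, Dnmt1, Atf7ip and Morc3. Cbx1, which encodes a heterochromatin protein, had 1 peak in each aged and none in any young list, a class holding 4.24% of all genes with a peak. Atrx, a chromatin remodeller, held 10, 9 and 11 against 14, 15 and 13, and Dnmt1, the maintenance DNA methyltransferase, 4, 3 and 3 against 7, 6 and 6. Trim28 itself, Hdac1 and Uhrf1 had no peak.

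**Figure D4:**
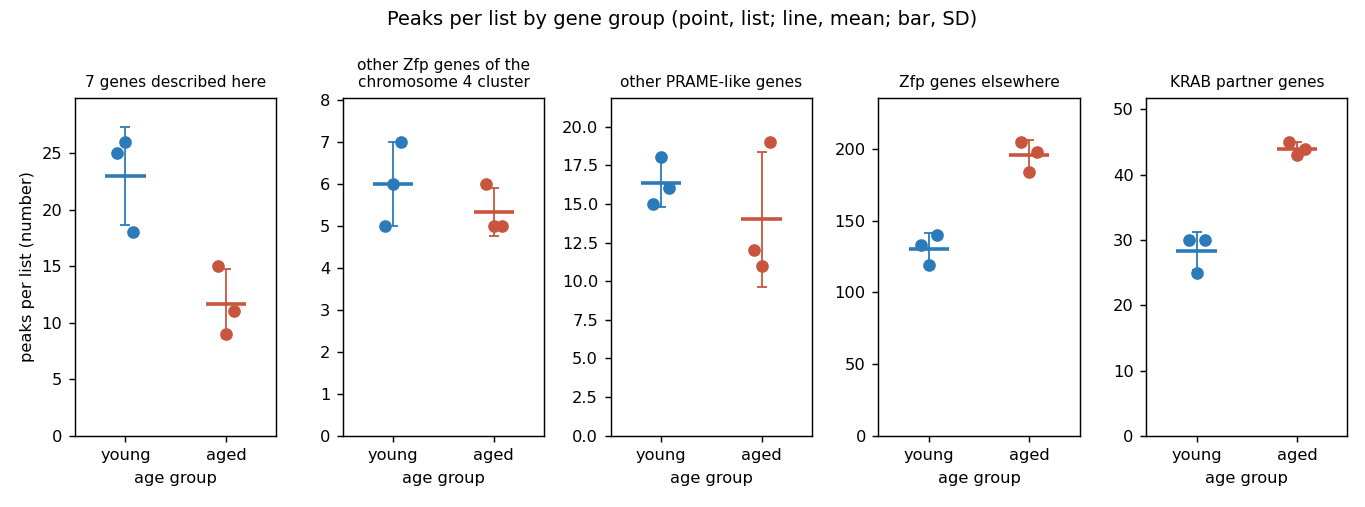
Peaks per list in 5 gene groups, with a point per list, a line at the mean and a bar for the SD (n = 3 per age); each panel has its own vertical axis from 0. The 7 genes, chosen for this difference, average 23 and 11.7 peaks, other cluster and PRAME-like genes overlap between ages, and the partner genes average 28.3 and 44.

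Markers of the tissue and of other cell types were read the same way. All 10 hippocampal and neuronal marker genes had a peak in at least 1 list, and 9 or 10 of them in every list. Of 10 testis germ cell genes 2 had any peak: Sycp3 in young list 3 and aged lists 1 and 3, and Sycp1 in aged list 2. Ddx4, Dazl, Prm1, Prm2, Tnp1, Tnp2, Acr and Tex101 had none. Of 10 immune cell genes, Itgam had 1 peak in each of the 6 lists and the other 9, Ptprc among them, had none.

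Of 5 oocyte genes, Gdf9 had 1 peak in young lists 2 and 3 and Nlrp5 had 1 in young list 1, while Zp3, Bmp15 and Oosp1 had none. This list thus summed to 1 peak in each young and 0 in each aged list. That sum joins 2 genes, and neither alone had a peak in all 3 young lists, as each Pramel member did. A tie between this list and the Pramel genes was not tested.

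The 5 genes whose 6 counts lay closest to the members' summed counts, by the sum of absolute differences over the 6 lists, were Ncor1 (35), Trim37 (39), Bptf (40), Ppp1r12a (41) and Smarca2 (41). None was close. Ncor1 held 18, 9 and 15 peaks in young and 15, 14 and 14 in aged lists, and the ages overlapped in it.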

How the data were processed

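Build mm10 and the tools HISAT2 2.0.4 and cutadapt 1.9.3 are listed in the submitters' processing notes. The peak names carry the word MACS; its version and settings, and the placement of reads with several matches, were not given in the sources used here. Each of 6 deposited lists, 1 per IP library with its input, holds an interval, a strand and a score per peak; the score is the authors' own, used only within a list.

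Peaks were given to each of 21900 protein-coding spans (RefSeq, GRCm38.p6, the mm10 build) that they overlapped by at least 1 base on the same strand. Strand came from RefSeq promoters for 17492 spans and from the majority of peaks for 1971, including Zfp978, Zfp991 and Pramel44. 1406 peaks over the 6 lists had no such span. The table holds no exons, so peaks were not placed in exons or UTRs. Coordinates count from 1. Counts per list were compared by two-sided exact permutation tests, except for the members. The members and lists were chosen with earlier results of these data known. Named genes were the members, genes sharing their peaks, their nearest neighbours, family and partner genes with peaks at 1 age only, and the 5 genes of closest counts. Further family, partner and marker genes were named outside this rule. Alternatives changed strand, shared peaks, list length, score minimum (the list's median), overlap (at least 50% of the peak) and replicates. Python 3.11.15, pandas 2.3.3 and numpy 2.4.6 were used, and the counting was tested on simulated data. One match of the search for recurring peak pairs is not reported here.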

Additional observations from a re-analysis of the deposited data

How the results depend on the processing

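The members' difference of 11.3 distinct peaks kept its direction in all 11 alternatives tried, at 14.7 with lists of equal length, 9 from the list median up and 9.83 to 13.8 leaving out 1 list. For single members, 76 of 77 alternative values had more young peaks, and Zfp991 was at 0 when shared peaks were set aside. The alternatives reuse the lists on which the members were chosen, so a kept direction of the members supports nothing. The excess of 27.3 other zinc finger genes with a peak in aged lists turned to -13.3 at equal length. The count of 91 genes with every young list above every aged list was 250 at equal length and 33 from the median up. It ranged from 117 to 186 leaving out 1 list, with over 1.5 times as many without young list 1 (175), 2 (172) or 3 (186) or aged list 1 (147). The opposite count of 1128 was 246 at equal length and 602 from the median up. Equal length takes more peaks from the longer aged lists; other causes were not tested. No paired analysis was possible because the replicate numbers only tie an IP to its input and do not pair young with aged samples. Depth is unknown, so a missing peak is not shown to be an unmethylated place.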
